A study of Mus musculus with 12 samples.

Results

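The comparison set LSK cells labelled as coming from leukemic mice with both a Tet2 deletion and Nras G12D against LSK cells labelled Nras G12D alone. Its members are 6 of the 12 libraries of the series, 3 per group, taken by their labels, and the other 6 libraries come from Tet2 knockout mice and from nonleukemic double mutant mice, 3 each. LSK cells are the bone marrow fraction that lacks lineage markers and carries Sca1 and cKit, which holds the blood stem cells and early progenitors. All animals were C57BL/6 mice at 6 months of age. The double mutant mice were conditional and specific to blood tissue in their mutations, and the labels give the genotypes Tet2(-/-) Nras(G12D) for the leukemic group and Nras(G12D) for its counterpart. By these labels both groups carry Nras G12D, and the reads at 6 CpGs of Tet2, given first among the results, go against the Tet2 label of the leukemic group. The labels name neither the Cre driver nor the exon of Tet2 that was removed, they do not say whether animals were pooled, and wild-type cells were not analysed here. The submitted data of the leukemic group carry the mark BMT in their names, and those of Nras G12D do not. The labels do not explain this mark, so whatever it stands for cannot be told apart from the group. Reduced representation bisulfite sequencing was used: MspI cuts the genome at CCGG, fragments of 150 to 400 bp are kept, and bisulfite turns unmethylated cytosines into bases read as T, so each read reports methylation at single CpGs.

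Tet2 is a dioxygenase that oxidises 5-methylcytosine and so starts the removal of DNA methylation, and its loss is common in human myeloid disease. Nras is a small GTPase that passes growth factor signals to the MAP kinase cascade, and the G12D form stays bound to GTP. In mammalian blood cells most CpGs are methylated, while CpG-dense promoters stay unmethylated, and Dnmt1 with Uhrf1 copies the pattern at each division.

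A check of the targeted gene preceded the comparison. At 6 CpGs inside Tet2, on mm9 chr3:133149153-133149260 and 58.1 to 58.2 kb downstream of the Tet2 start, the Nras G12D libraries held 65 to 118 reads per CpG. The libraries labelled leukemic held 61 to 147 reads there in the first, 34 to 111 in the second and 18 to 72 in the third. The tables list a position from 10 reads on, and in the other 6 libraries the same CpGs were not listed, apart from 2 CpGs with 10 reads in 1 Tet2 knockout library and 3 CpGs with at most 13 reads in 1 nonleukemic library. Between positions 119973312 and 141230236 of chromosome 3, a stretch that holds Tet2, 155 CpGs had at least 20 reads in each of these 6 libraries and were not listed in any of the other 6. These CpGs were picked by that pattern of reads, so at them the leukemic labels go with Nras G12D by the choice. Of the 93 other CpGs shown along Tet2, 73 had at least 10 reads in all 12 libraries. All directions given here are between libraries by their labels, and the share of cells that still carried Tet2 was not tested. No expression was measured, so the LSK label could not be checked against marker transcripts.

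**Figure D1:**
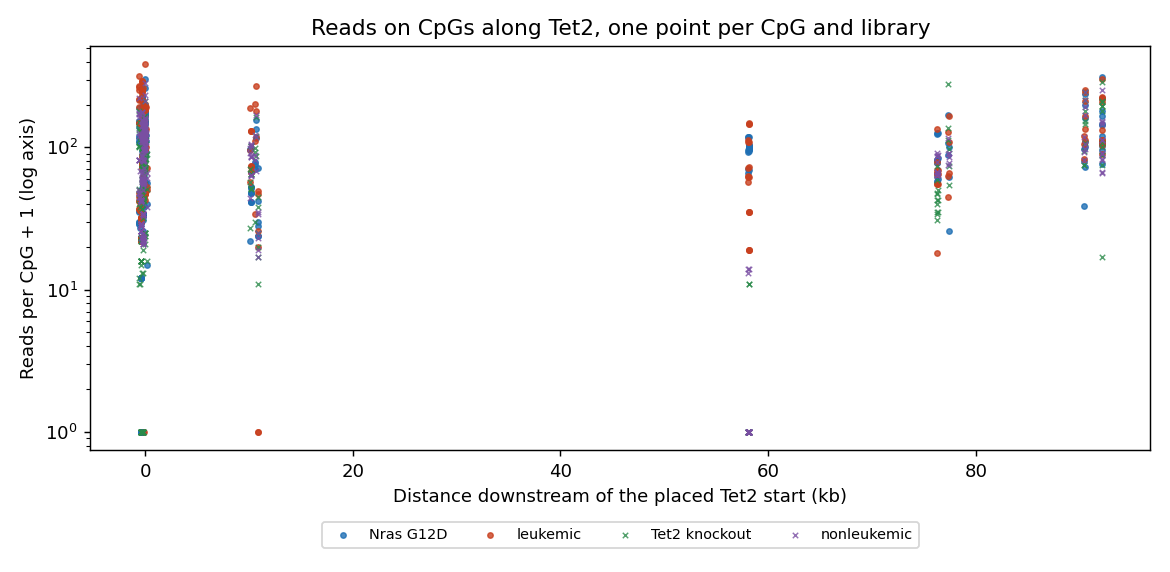
Reads per CpG plus 1 (log axis) against the distance in kb downstream of the Tet2 start, 1 point per CpG and library, circles for Nras G12D and for leukemic labels, crosses for Tet2 knockout and nonleukemic labels. At 58.1 to 58.2 kb the circles stand at 18 to 147 reads while the crosses lie at 0 to 13 reads, where 0 stands for a CpG that is not listed.

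The tables held 107032660 to 126695756 reads at listed positions per Nras G12D library and 133069618 to 199736369 per library labelled leukemic. Of 2154830 listed CpGs, 1016578 autosomal CpGs had at least 10 reads in all 6 libraries and were tested, with a median of 82 to 98 reads per CpG in Nras G12D and 101 to 142 in the leukemic labels. Depth thus differed between the groups, and the library labelled leukemic 1 also had 2.74% of positions with a base other than C or T against 1.14 to 1.38% in the other 5.

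Methylation was lower in the libraries labelled leukemic, and the gap lay in CpGs that are methylated elsewhere. The mean over all tested CpGs was 33.0, 33.0 and 33.3% in Nras G12D and 31.8, 30.5 and 31.3% in the leukemic labels, so the groups did not overlap. Group means were 33.1% ± 0.205 (SD, n = 3) and 31.2% ± 0.668 (SD, n = 3), a difference of -1.92 points with p = 0.1 in a two-sided exact permutation test, the smallest p that 3 against 3 can give. Weighted by reads, so that deeply read CpGs count for more, the difference was -3.22 points. CpGs were then classed by their mean level in the other 6 libraries, which the comparison does not use. Among 288483 CpGs over 80%, Nras G12D stood at 93.3, 93.6 and 93.9% and the leukemic labels at 89.9, 86.3 and 88.8%, a difference of -5.25 points (exact permutation p = 0.1). The 61665 CpGs between 20 and 80% averaged 49.9, 50.0 and 50.7% in Nras G12D against 46.1, 43.5 and 44.5%, a difference of -5.54 points (exact permutation p = 0.1). The 571549 CpGs under 20% averaged 1.07% ± 0.143 (SD, n = 3) in Nras G12D and 1.18% ± 0.0926 (SD, n = 3) in the leukemic labels, and here the groups overlapped (exact permutation p = 0.3). The libraries labelled leukemic also lay further apart from each other than the Nras G12D libraries did, with an SD of 1.83 against 0.297 points in the class over 80%.

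**Figure D2:**
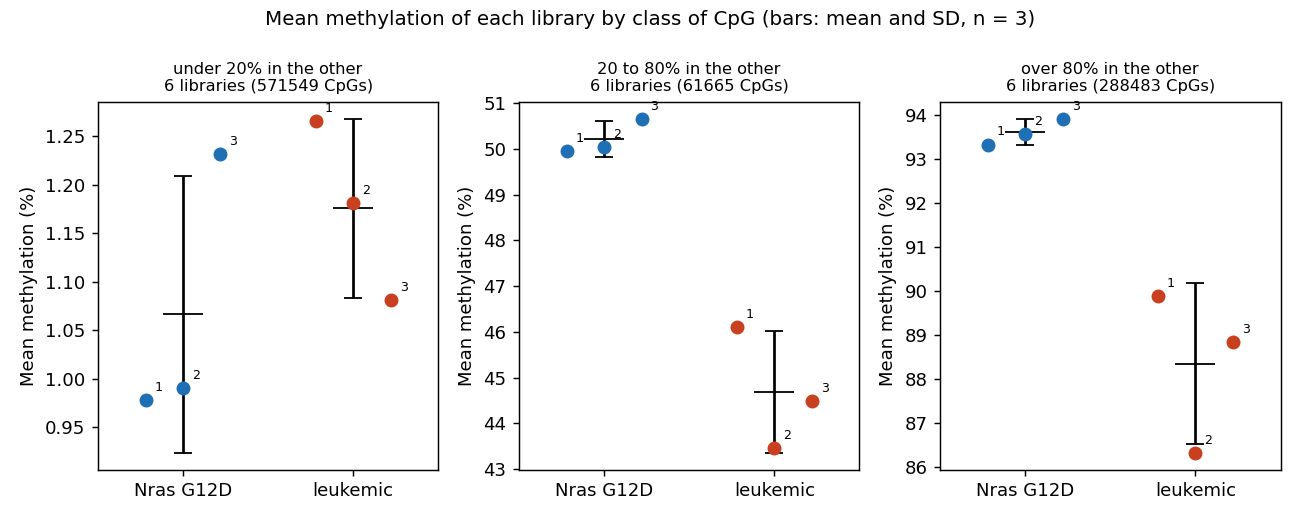
Mean methylation in percent of each library (numbered points) in 3 classes of CpG set by the level in the other 6 libraries, with the group mean and SD as black bars, axes not starting at 0. Nras G12D lies at 93.3 to 93.9% and the leukemic labels at 86.3 to 89.9% in the class over 80%, while the groups overlap in the class under 20%.

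Tests at single CpGs and in tiles found the same direction, with few calls after correction. For a call, the adjusted p had to be under 0.05 and the difference 25 points or more for a CpG and 10 points or more for a tile of 1000 bp with at least 3 tested CpGs. By the quasi-binomial F test 0 of 1016578 CpGs passed in either direction (0.0%), with 39735 lower (3.91%) and 18038 higher (1.77%) at an unadjusted p under 0.05, and limma called 0 as well. With at least 25 points added to the unadjusted p, 10246 CpGs were lower (1.01%) and 1257 higher (0.124%). The groups did not overlap at 34411 CpGs lower in the leukemic labels (3.38%) and 10759 higher (1.06%). CpGs whose groups did not overlap and differed by at least 25 points numbered 15232 lower (1.5%) and 2117 higher (0.208%). Of 87580 tiles, 3 were called lower (0.00343%) and 0 higher (0.0%), against 10296 lower (11.8%) and 1671 higher (1.91%) at an unadjusted p under 0.05, and limma called 0. The 3 calls were lost when any 1 of the 6 libraries was left out. Setting the prior of the dispersion on features at 10 to 90% methylation, an alternative chosen after seeing the data, gave 341 lower and 17 higher CpG calls and 118 lower and 8 higher tile calls. A fit on all 12 libraries, which share 1 estimate of the spread, called 1594 tiles lower and 72 higher and no CpG.

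For a description that rests on more tiles, those with an unadjusted p under 0.05 and at least 10 points were counted. Without any size limit, 12798 tiles had all leukemic labels below all Nras G12D libraries (14.6%) and 2563 had them above (2.93%). With both limits there were 6855 lower tiles (7.83%) and 429 higher tiles (0.49%), and tiles whose 3 leukemic libraries all lay below the 3 Nras G12D libraries by at least 10 points on average numbered 7356 (8.4%) against 497 (0.567%) in the opposite direction. The count of lower tiles fell to 4483 without Nras G12D 2 and to 4498 without Nras G12D 3, and the count of higher tiles was 765 without the library labelled leukemic 2. Thinning every CpG to the lowest coverage of the 6 libraries left 6786 lower and 416 higher tiles. In the 6727 lower tiles read in all 12 libraries, the median level was 90.9, 91.3 and 92.6% in Nras G12D and 72.3, 72.5 and 71.8% in the leukemic labels. In the same tiles the median was 91.4 to 93.2% in the Tet2 knockout and 91.0 to 91.3% in the nonleukemic libraries. The 414 higher tiles read in all 12 libraries had medians of 33.0 to 34.1% in Nras G12D, 52.1 to 56.2% in the leukemic labels, 39.0 to 47.9% in Tet2 knockout and 42.4 to 43.4% in nonleukemic libraries. Lower tiles were thus mostly at high levels in Nras G12D, and higher tiles at intermediate ones. Part of this follows from the choice, which used the same values. With a limit of 10 points, a nearly unmethylated tile cannot fall that far and a nearly fully methylated tile cannot rise that far.

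**Figure D3:**
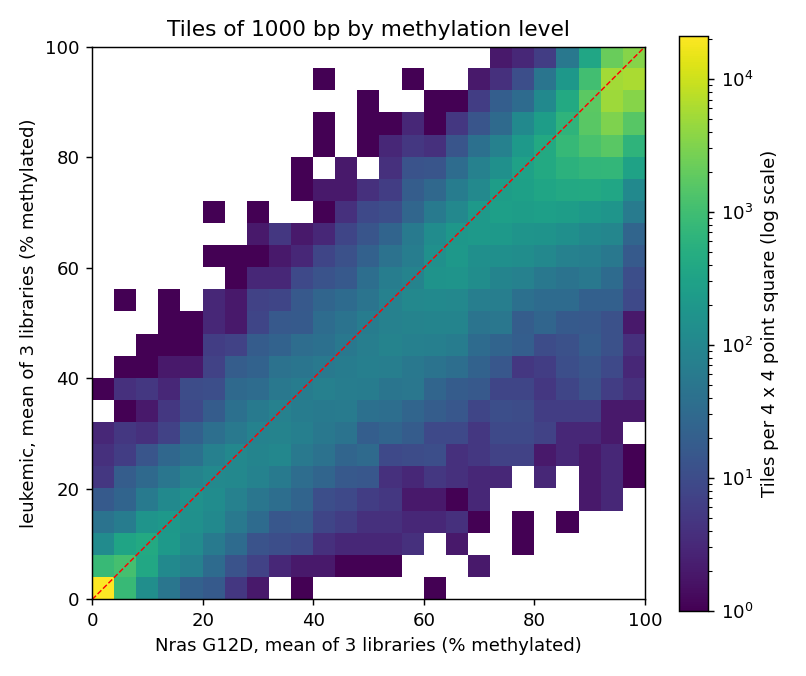
Number of tiles (colour, log scale) by the mean level of the 3 Nras G12D libraries (horizontal axis, percent) and of the 3 libraries labelled leukemic (vertical axis, percent), with the line of equal levels in red. More tiles lie below the line than above it at high levels, and 6855 tiles were lower against 429 higher at an unadjusted p under 0.05 and 10 points.

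The lower tiles named here are those called that held 5 or more CpGs and separated the groups fully, followed by uncalled tiles of the same kind with the smallest p. Gene starts are the nearest ones that could be placed on mm9, so a closer start may exist. The called tile on mm9 chr6:143781000-143781999, with 16 CpGs, measured 87.2, 92.2 and 92.1% in Nras G12D and 30.9, 33.0 and 20.96% in the leukemic labels (adjusted p = 0.0336, quasi-binomial test). Of its CpGs, 15 showed no overlap, but the fall was uneven. The library labelled leukemic 3 stood at 3.03% at 143781879 and at 84.6% from 143781970 to 143781996. CpGs this close can share reads of 50 bp, so they are not separate measurements. The called tile on chr19:5757000-5757999, with 19 CpGs, measured 61.4, 54.4 and 62.8% against 9.4, 14.4 and 12.4% (adjusted p = 0.0336, quasi-binomial test). Its neighbour on chr19:5756000-5756999, with 14 CpGs, measured 69.7, 77.5 and 62.1% against 25.7, 22.7 and 24.0% and was not called (adjusted p = 0.0606, quasi-binomial test). That every library labelled leukemic lay below every Nras G12D library in these tiles follows from the choice. The remaining call, on chr7:56123000-56123999, held 4 CpGs and so fell outside the naming rule, and was singled out after its values were seen. It lay 13.5 kb downstream of the start of E2f8, a transcription factor of the cell cycle, and measured 93.8, 97.9 and 93.2% against 19.4, 21.4 and 19.1% (adjusted p = 0.0336, quasi-binomial test).

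The uncalled lower tiles had adjusted p-values of 0.0541 to 0.0931 by the quasi-binomial test. The tile on chr8:125922000-125922999, 13.0 kb upstream of the start of Tubb3, a beta tubulin best known from neurons, measured 89.9, 87.9 and 100% in Nras G12D and 23.8, 21.2 and 22% in the leukemic labels. The tile on chr6:113640000-113640999, 6.54 kb upstream of Tatdn2, measured 68.8, 68.9 and 71.7% against 8.2, 6.1 and 0.7%. The tile on chr16:17148000-17148999, with 14 CpGs and 1.18 kb upstream of Ccdc116, measured 55.1, 59.2 and 48.9% against 10.04, 12.2 and 15.9%. As whole tiles these lay under 25% in every leukemic label, but single CpGs varied. At chr8:125922531 the leukemic labels stood at 66.2, 27.3 and 78.9%, though all 5 CpGs of that tile showed no overlap. In the chr16 tile 11 of 14 CpGs showed no overlap. At chr16:17148208 the leukemic labels stood at 47.8, 30.1 and 95.3%, against 78.2, 80.8 and 78.3% in Nras G12D. The tile on chr11:100741000-100741999 lay 19.7 kb downstream of the start of Stat5a, a transcription factor of cytokine signalling, and measured 83.1, 86.1 and 92.3% against 45.3, 40.8 and 46.8%. Of its 6 CpGs, 4 showed no overlap, from 100741018 to 100741129. At 100741975 and 100741996 the groups overlapped, the former with 73.9, 90.9 and 93.8% in Nras G12D and 100, 92.1 and 100% in the leukemic labels. The remaining tiles, on chr5:111935000-111935999, chr3:52045000-52045999 and chr18:84498000-84498999, differed by -43.1, -44.2 and -48.1 points. In all 10 lower tiles the other 6 libraries lay above every library labelled leukemic. These tiles were chosen for low leukemic levels. Among all 6727 lower tiles read in 12 libraries, the Tet2 knockout mean lay above the leukemic mean in 99.5% and the nonleukemic mean in 99.6%.

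No higher tile was called. The 10 named are those with the smallest p among tiles with at least 5 CpGs, at least 10 points and no overlap between the groups. Their adjusted p-values were 0.124 to 0.145 by the quasi-binomial test. The largest difference, 35.9 points, was on chr9:56172000-56172999, with 15.2, 15.3 and 3.6% in Nras G12D and 55.0, 38.3 and 48.5% in the leukemic labels. The tile on chr11:90209000-90209999 lay 42.7 kb downstream of the start of Hlf, a transcription factor of blood stem cells, and measured 35.5, 47.7 and 41.6% against 80.3, 71.8 and 69.4%. The tile on chr2:115603000-115603999, 0.858 kb upstream of the start of Gm52524, measured 44.3, 42.0 and 45.8% against 75.7, 70.1 and 68.6%. The tile on chr8:125047000-125047999, 27.7 kb downstream of the start of Piezo1, a mechanically gated cation channel, measured 50.6, 50.9 and 46.3% against 74.8, 68.9 and 75.8%. That each of these 4 tiles was higher in every library labelled leukemic than in any Nras G12D library follows from the choice.

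Tiles that were nearly unmethylated in Nras G12D were among the higher ones too. The tile on chr5:124107000-124107999, 26.9 kb downstream of the start of Clip1, measured 2.8, 2.0 and 0.2% against 27.1, 20.2 and 21.6%. The tile on chr17:28435000-28435999, 15.0 kb upstream of Fance, a subunit of the Fanconi anaemia complex, measured 2.3, 4.6 and 3.9% against 20.6, 28.9 and 20.6%. The tile on chr7:25988000-25988999, 16.4 kb downstream of the start of Dedd2, measured 10.8, 11.3 and 10.4% against 32.05, 44.8 and 36.6%. The tiles on chr5:115256000-115256999, chr10:81027000-81027999 and chr15:76287000-76287999 differed by 23.8, 30.9 and 20.9 points. In 9 of the 10 higher tiles the other 6 libraries lay below every library labelled leukemic, the exception being the tile downstream of Hlf, where the other 6 reached 69.7%. These tiles were chosen for high leukemic levels. Among all 414 higher tiles read in 12 libraries, the Tet2 knockout mean lay above the leukemic mean in 14.5% and the nonleukemic mean in 9.66%.

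**Figure D4:**
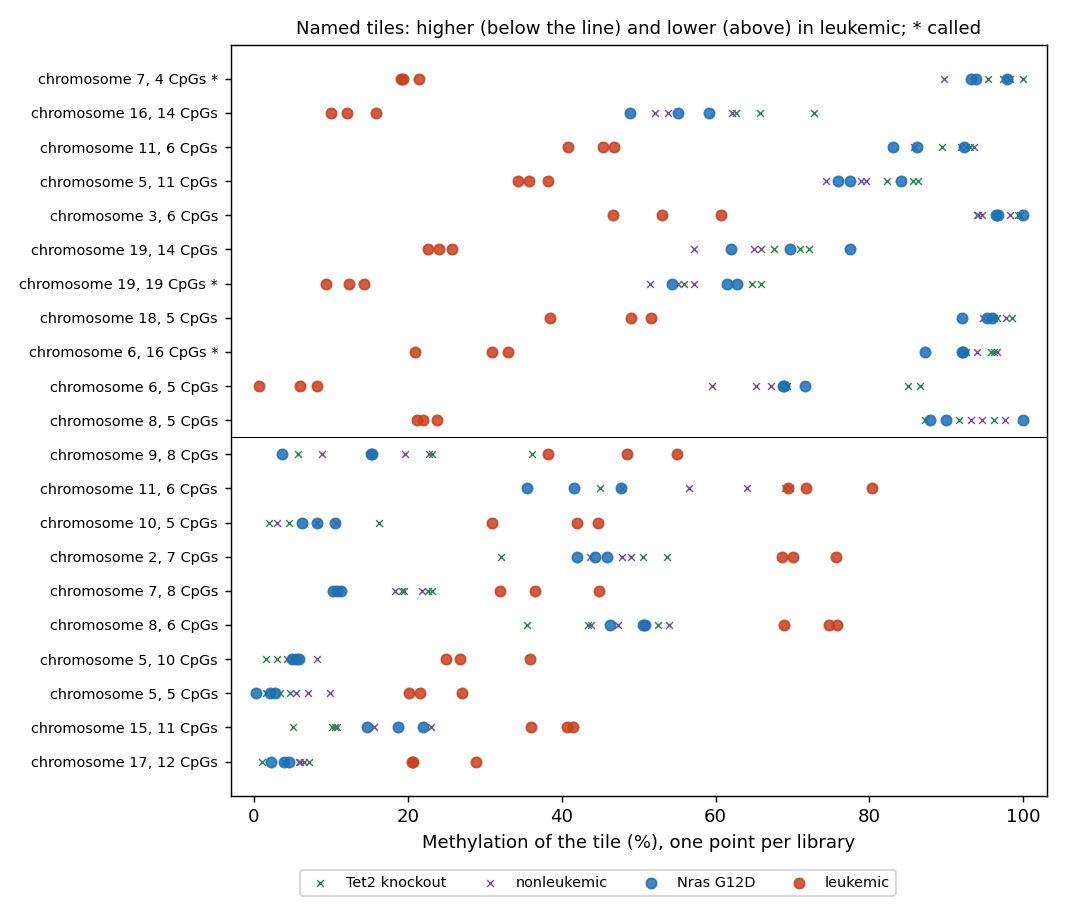
Methylation in percent of the 10 higher tiles (below the line) and the 11 lower tiles (above it), 1 point per library, with the called tiles starred and the other 6 libraries as crosses. Blue Nras G12D points and red leukemic points do not overlap in any tile, which the choice of tiles fixes, and the crosses of the lower tiles all lie above the red points.

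Large differences were mostly seen in 1 leukemic library at a time. Of 58840 tiles over 20% in the other 6 libraries, 7.56, 8.52 and 10.5% lay at least 20 points below the Nras G12D mean in the libraries labelled leukemic 1, 2 and 3. The same measure of each Nras G12D library against its other two gave 0.568, 0.396 and 1.41%. A level that much lower was seen in 1 leukemic library for 9336 tiles, in 2 for 2135 and in all 3 for 674, so that 76.9% of such tiles had it in 1 library and 5.55% in all 3. The 9336 tiles were spread over the libraries, with 2575 for leukemic 1, 2777 for leukemic 2 and 3984 for leukemic 3. Levels at least 20 points higher were rarer, at 1.04, 0.432 and 1.25% in the 3 leukemic labels, and 35 tiles had one in all 3.

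**Figure D5:**
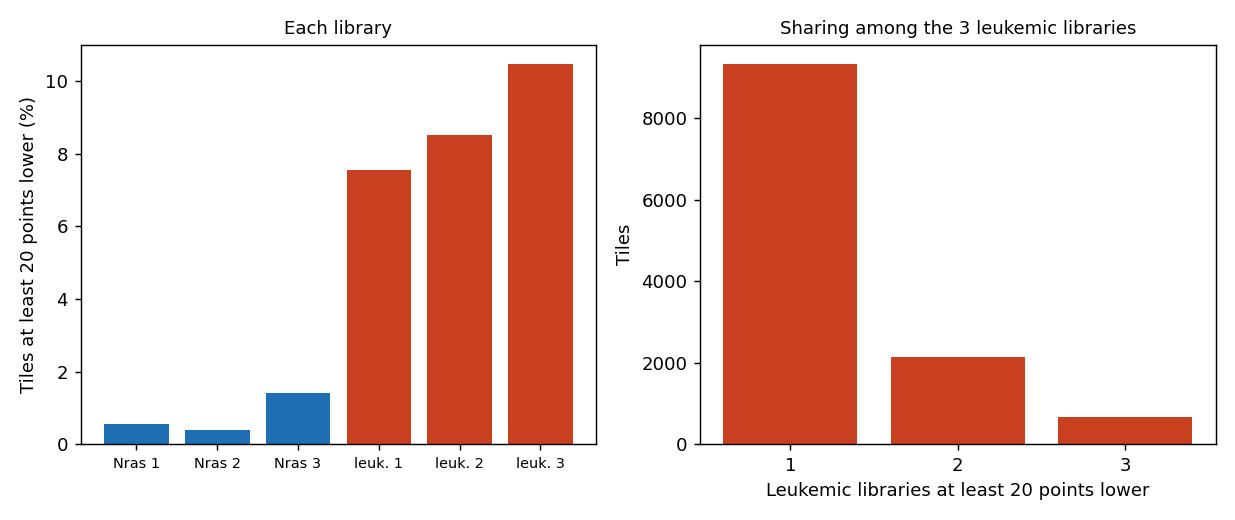
Left, percent of 58840 tiles that lie at least 20 points lower, for each leukemic label against the mean of Nras G12D and for each Nras G12D library against its other two. Right, tiles by the number of leukemic labels that are that much lower: 9336 in 1 library, 2135 in 2 and 674 in 3.

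The differences were placed by methylation class, CpG number and distance to gene starts. Tiles over 80% in the other 6 libraries had a median difference of -4.00 points, with 10.8% of 48334 tiles lower and 0.12% higher at an unadjusted p under 0.05 and 10 points. Tiles between 20 and 80% had a median of -4.56 points, with 13.5% of 10506 lower and 2.4% higher. Tiles under 20% had a median of 0.0526 points, with 0.38% of 26580 lower and 0.391% higher. Within the class over 80%, the share of lower tiles was 12% at 3 CpGs, 11.1% at 4 to 5, 9.23% at 6 to 9, 5.6% at 10 to 19 and 2.36% at 20 or more. A tile with few CpGs also has fewer reads and more scatter, and the part of this in the trend was not tested. The median difference was -4.56 points at 3 CpGs and -1.77 points at 20 or more. In tiles over 80%, the share of lower tiles was 10.7% within 500 bp of a placed start, 12.2% at 500 to 2000 bp and 10.7% beyond 20000 bp. In tiles between 20 and 80% it was 16.0% within 500 bp and 13.0% beyond 20000 bp. In tiles under 20% it was 0.0112% within 500 bp and 0.701% beyond 20000 bp. Because most tiles near starts are unmethylated, 0.932% of all tiles within 500 bp were lower, against 9.35% beyond 20000 bp. Around 10119 placed starts, the mean in bins of 250 bp was 0.961% in Nras G12D and 1.02% in the leukemic labels just downstream of the start. It was 45.2 against 42.8% in the bin centred 4875 bp downstream, a difference of -2.35 points. All 19 autosomes had lower tiles, from 7.17% on chromosome 12 to 8.76% on chromosome 15.

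Promoters were tested over windows from 250 bp before to 50 bp after the gene start, as RefSeq gives them, placed on mm9 by the spacing of their CpGs. No window of 9292, from 8238 genes, was called by the quasi-binomial test in either direction (0.0%). At an unadjusted p under 0.05, 333 windows were lower (3.58%) and 410 higher (4.41%), and limma called 0. With at least 10 points as well, 22 were lower (0.237%) and 5 higher (0.0538%). The groups did not overlap in 317 windows lower in the leukemic labels (3.41%) and 491 higher (5.28%), and with at least 10 points in 28 (0.301%) and 4 (0.043%). Both groups were under 5% in 94.8% of windows, and the median difference of all windows was 0.0349 points. In the 101 windows over 80% in the other 6 libraries, Nras G12D averaged 91.1, 91.4 and 91.9% and the leukemic labels 87.9, 84.7 and 86.9%, the same direction as in tiles. Among windows with at least 5 CpGs, at least 10 points and no overlap, 20 were lower and 4 higher, none of them called, and the named ones had adjusted p-values of 0.487 to 0.588 by the quasi-binomial test.

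3 of these windows are shown because they hold several separate CpGs or belong to a blood gene. Sequences are from RefSeq on GRCm38.p6, 5′ to 3′ on the strand of the gene, with the CpGs that were tested here in capitals.
Hoxa5, mm9 chr6:52154537-52154836, minus strand: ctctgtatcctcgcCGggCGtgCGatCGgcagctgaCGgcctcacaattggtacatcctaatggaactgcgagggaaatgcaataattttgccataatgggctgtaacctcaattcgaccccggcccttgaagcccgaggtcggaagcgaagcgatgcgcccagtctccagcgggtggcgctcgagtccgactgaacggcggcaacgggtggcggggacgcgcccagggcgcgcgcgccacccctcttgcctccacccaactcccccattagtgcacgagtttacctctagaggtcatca
Slc7a7, mm9 chr14:55036467-55036766, minus strand: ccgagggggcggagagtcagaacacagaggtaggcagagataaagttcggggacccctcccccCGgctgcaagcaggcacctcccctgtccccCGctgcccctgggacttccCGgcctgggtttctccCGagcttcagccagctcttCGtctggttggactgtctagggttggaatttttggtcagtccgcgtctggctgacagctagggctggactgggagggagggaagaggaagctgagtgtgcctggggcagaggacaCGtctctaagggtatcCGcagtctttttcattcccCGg
Tubb4a, mm9 chr17:57226974-57227273, minus strand: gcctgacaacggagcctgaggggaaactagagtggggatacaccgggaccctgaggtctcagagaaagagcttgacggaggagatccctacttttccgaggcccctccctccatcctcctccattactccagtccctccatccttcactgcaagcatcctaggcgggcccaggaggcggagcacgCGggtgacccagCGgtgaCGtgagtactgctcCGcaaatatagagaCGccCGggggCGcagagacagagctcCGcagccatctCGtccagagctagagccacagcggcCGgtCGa

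The Hoxa5 window, the promoter of a homeobox factor of body patterning and blood formation, measured 52.4, 64.5 and 61.6% in Nras G12D and 95.7, 84.6 and 82.5% in the leukemic labels. Its means were 59.5% ± 6.29 and 87.6% ± 7.10 (SD, n = 3 each), and the difference did not pass the test (adjusted p = 0.588, quasi-binomial test). All 5 tested CpGs lie 213 to 235 bp upstream of the start, within reach of single reads of 50 bp, so they are not separate measurements, and the 24 other CpGs of the window were not tested. Of the 5, the 3 at -213, -223 and -227 bp showed no overlap between groups. A separate tile 1.086 kb downstream of the start, chr6:52153000-52153999 with 16 CpGs, does not overlap this window and measured 49.3, 51.3 and 53.6% against 61.5, 54.5 and 77.4%, and the library labelled leukemic 2 lay close to Nras G12D.

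The Slc7a7 window, from a gene for a cationic amino acid transporter, measured 60.5, 49.9 and 65.1% in Nras G12D and 41.1, 24.9 and 31.9% in the leukemic labels. Of its 8 tested CpGs, 6 showed no overlap and lay on both sides of the start. The nonleukemic libraries were also low there, at 29.5, 47.1 and 41.7%, so the leukemic labels overlapped them. The Tubb4a window, from a gene for a beta tubulin, measured 48.2, 48.0 and 42.5% against 26.4, 30.1 and 34.0% over 11 CpGs. Tbx1, a T-box factor of pharyngeal development, measured 51.3, 43.3 and 41.2% against 28.2, 21.7 and 13.99%. The other 6 libraries stood at 20.1 to 67.5% in the Tbx1 window, so the leukemic labels overlapped them. Among higher windows, Vmn2r29, a vomeronasal receptor gene, measured 7.4, 6.6 and 5.7% against 61.3, 11.7 and 37.2%, and nonleukemic library 3 stood at 42.8%. Plagl1, an imprinted zinc finger gene, measured 24.8, 26.7 and 19.3% against 33.1, 27.8 and 49.0%, and the other 6 libraries, at 28.9 to 38.8%, overlapped the leukemic labels.

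Genes of the pathway were read from lists, as promoter windows and as tiles within 20 kb of a placed start. Promoter windows of the lists include ones placed through their neighbours, and the median difference over all 10490 such windows was 0.0291 points. Among all 35814 tiles within 20 kb of a placed start, 5.7% were lower and 0.466% higher at an unadjusted p under 0.05 and 10 points. No list promoter was called, and the adjusted p of every list tile named here was 0.145 to 0.364 by the quasi-binomial test, so these are values, not calls. The tiles named with the lists were chosen after their values were seen.

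MAPK feedback genes hold the pathway down from within, through Sprouty and Spred proteins, dual-specificity phosphatases and Ras GTPase-activating proteins. Of 32 such genes, 19 had a tested promoter, with a median difference of 0.136 points over 21 windows and a range of -0.516 to 0.753. The best covered were Errfi1 with 40 CpGs (0.175% in Nras G12D, 0.415% in the leukemic labels), Cbl with 29 CpGs (0.268 and 0.0247%) and Nf1 with 28 CpGs (0.351 and 1.03%), all unmethylated in both groups. Of 115 tiles near these genes, 8 were lower (6.96%) and 3 higher (2.61%). A tile 12.4 kb upstream of Dusp6, the ERK phosphatase, measured 91.8, 91.7 and 100% against 59.2, 78.7 and 68.9%. A tile 9.61 kb downstream of the start of Dusp2, with 3 CpGs, measured 61.6, 49.2 and 66.7% against 18.7, 36.2 and 38.3%. In the other direction, a tile 3.54 kb downstream of the start of Spry2, which damps receptor tyrosine kinase signals, measured 80.6, 80.8 and 68.8% against 90.4, 86.6 and 100%. Near Dab2ip, a Ras GTPase-activating protein, a tile measured 20.3, 26.5 and 24.0% against 44.4, 42.4 and 36.2%.

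Genes of the Ras and MAPK cascade itself showed the same unmethylated promoters. For 14 of 25 genes with a tested window, the median difference over 15 windows was 0.0521 points, and the best covered were Sos2 with 49 CpGs (0.117 and 0.120%), Ksr2 with 34 (0.173 and 0.531%) and Hras with 24 (0.235 and 0.488%). The Nras promoter, with 14 CpGs, measured 0.311 and 0.364%. Of 89 nearby tiles, 2 were lower (2.25%) and 2 higher (2.25%). The larger difference was 16.5 kb downstream of the start of Ksr1, a scaffold of Raf and MEK, at 87.6, 90.02 and 90.1% against 66.1, 44.0 and 51.1%.

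Of 18 genes that write, read or erase methylation, 12 had a tested promoter, with a median difference of 0.127 points over 15 windows. The Tet2 promoter, with 45 CpGs, measured 0.0722% in Nras G12D and 0.199% in the leukemic labels, that of Dnmt3a with 41 CpGs 0.0592 and 0.175%, and that of Uhrf1 with 23 CpGs 0.0853 and 0.216%. Of 75 nearby tiles, 3 were lower (4.0%) and 0 higher (0.0%). A tile 5.74 kb downstream of the start of Idh2, an isocitrate dehydrogenase mutated in human leukemia, measured 91.5, 88.3 and 80.9% against 35.9, 54.5 and 61.3%.

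Promoters often reported as hypermethylated in human myeloid neoplasia were unmethylated in both groups in nearly every case. Of 44 such genes, 23 had a tested promoter, with a median of 0.375% in Nras G12D and 0.285% in the leukemic labels and a median difference of -0.0425 points over 26 windows. Cdkn2a, a cell cycle inhibitor, measured 0.393 and 0.383% over 37 CpGs, Id4 0.265 and 0.857% over 33, Dapk1 0.239 and 0.0991% over 32, and Foxo3 0.202 and 0.0755% over 30. Hoxa5 was the only window of this list with a difference of 10 points. Of 160 nearby tiles, 6 were lower (3.75%) and 4 higher (2.5%). Near Irf8, a factor of monocyte and dendritic cell fate, 3 tiles met those limits. The tile 9.24 kb downstream of its start measured 8.74, 5.26 and 16.5% against 35.6, 39.7 and 25.5%. The tile at 19.2 kb measured 95.3, 96.8 and 97.9% against 81.6, 87.6 and 85.5%. The tiles near Dapk1, a death-associated kinase, differed by -20.7 and -24.4 points. Of 39 Hox genes, 10 had a tested promoter, with a median difference of 0.0201 points, and the best covered besides Hoxa5 were Hoxd11 with 24 CpGs (2.63 and 1.64%) and Hoxd1 with 22 (1.20 and 3.77%). Of 107 tiles near Hox genes, 1 was lower (0.935%) and 1 higher (0.935%).

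Genes that mark blood cell types were read for methylation only, which does not give the cell makeup. Over 10 promoter windows of stem and progenitor genes the median difference was 0.0700 points, and Ikzf1 with 35 CpGs measured 0.101 and 0.0471%. Of 89 tiles near these genes, 4 were lower (4.49%) and 1 higher (1.12%). A tile 14.5 kb downstream of the start of Zfpm1, the GATA cofactor FOG1, measured 26.9, 36.9 and 35.1% against 7.35, 15.7 and 6.85%. A tile 9.73 kb downstream of the start of Hlf measured 32.4, 49.1 and 33.9% against 54.3, 51.8 and 52.5%. A CpG-dense tile 4.52 kb upstream of Prdm16, with 24 CpGs, measured 52.6, 55.6 and 54.8% against 18.2, 29.6 and 49.0%, leukemic label 3 lying close to Nras G12D.

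Myeloid genes had a median promoter difference of 0.484 points over 7 windows, with Cebpb at 0.188 and 0.501% over 42 CpGs and Csf2ra, a subunit of the GM-CSF receptor, at 67.6 and 57.9% over 9 CpGs, where the leukemic labels ranged from 38.8 to 84.6%. Of 48 tiles near myeloid genes, 2 were lower (4.17%) and 2 higher (4.17%). Lymphoid genes had a median of 0.000553 points over 9 windows, and of 79 tiles near them 5 were lower (6.33%) and 1 higher (1.27%). The promoter of Tcf7, a T cell factor also active in stem cells, measured 12.4 and 6.18% in its downstream window, and the tile 0.984 kb upstream of a start of this gene measured 27.7, 23.2 and 23.1% against 15.4, 9.71 and 11.04%. At the CpG 15 bp downstream of the start of that window, Nras G12D stood at 23.9, 28.2 and 32.8% and the leukemic labels at 21.5, 13.2 and 81.1%. In the upstream window of Tcf7, with 30 tested CpGs, no CpG was above 11.3% in either group. The higher tile lay 6.27 kb upstream of the start of Gata3, a T cell transcription factor, at 23.3, 13.7 and 12.7% against 43.8, 22.9 and 23.1%, and there the groups overlapped. Of 33 tiles near erythroid and megakaryocyte genes, 5 were lower (15.2%) and 0 higher (0.0%), and 3 of the 5 lay near Gp1bb, a subunit of the platelet receptor for von Willebrand factor. The promoter window of Gp1bb itself, with 3 CpGs, measured 35.5, 21.8 and 11.7% in Nras G12D and 28.0, 30.0 and 45.2% in the leukemic labels, so the groups overlapped. At the CpG 105 bp upstream of its start the library labelled leukemic 3 stood at 100% and the other 5 libraries at 3.41 to 22%. The CpG at 118 bp went the other way, with 0.0% in leukemic 3 and 14.8 to 46.5% in the other 5. At 121 bp leukemic 3 stood at 35.3%, within the 17.0 to 45.1% of the other 5. The median promoter difference of this list was 0.0 points over 3 windows. A tile 0.697 kb downstream of the start of Itga2b, the megakaryocyte integrin CD41, measured 96.7, 94.6 and 91.8% against 64.3, 39.7 and 71.8%. Near stromal and endothelial genes 3 of 23 tiles were lower (13.0%), among them 1 at 16.0 kb downstream of the start of Kdr, the VEGF receptor, at 78.8, 73.8 and 90.7% against 60.3, 46.7 and 39.6%. These shares rest on few tiles each and were not tested against other lists.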

How the data were processed

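Genomic DNA of sorted LSK cells was profiled in 12 libraries by single-end reads of 50 bp. Reads were aligned with Bismark to mm9 (NCBIM37), per the submitters' processing notes, whose version is not given in the sources used here. The deposited tables list the read count (coverage) of each strand position with at least 10 reads. The deposited percent values give the share of C and T at that position, from which methylated and unmethylated reads were recovered by rounding. Both strands of a CpG were summed. Means weigh CpGs equally and were compared by two-sided exact permutation tests. CpGs, tiles and promoters were tested with a quasi-binomial F test whose Pearson dispersion was moderated as in limma (prior set on all features, floor of 1), with Benjamini-Hochberg adjustment over all features, in Python 3.11.15 with NumPy 2.4.6 and SciPy 1.17.1. The test was tried on simulated tiles between 20 and 80% only, not on CpGs or promoters, and under another prior than those fitted. The fitted prior had 3.08 degrees of freedom and a dispersion of 9.43 for tiles. For CpGs these were 0.344 and 0.000994. The labels do not state that libraries of a group come from separate animals, so the p-values may reflect technical spread alone. RefSeq promoters (GRCm38.p6) were placed on mm9 where the spacing of at least 7 CpGs fitted 1 place in order with its neighbours, 10139 windows in all. Another 2896 windows with at least 3 matching CpGs entered the gene lists and nearest starts only. Named tiles and promoters were the 10 per direction with at least 5 CpGs, no overlap and at least 10 points, called ones by size first and then uncalled ones by p, and per gene list the members with the most tested CpGs. Members and lists were chosen with earlier results of these data known. Between libraries of a group the mean chi-square per CpG was 5.23 to 34.0, so none was a copy of another. Alternatives were another coverage minimum, weighting, thinning, tile size, test, block, library set and prior.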

Additional observations from a re-analysis of the deposited data

Results flagged for a closer look

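Reads outside the methylation comparison set the groups apart from the rest of the series. Inside Tet2, 6 CpGs were listed in every Nras G12D library and in every library labelled leukemic, and in at most 2 of the other 6 libraries, and on chromosome 3 as a whole 155 CpGs had at least 20 reads in each of these 6 libraries and were not listed in the other 6. Those 155 CpGs lie between mm9 positions 119973312 and 141230236, and they make up 96.9% of the 160 autosomal CpGs with that pattern. In the reverse pattern, 96 of 136 CpGs lay on chromosome 3 and 33 on chromosome 4. No formal outlier test was run within groups of 3 libraries.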

How the results depend on the processing

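The mean difference kept its direction under every alternative run, between -1.57 and -2.24 points when 1 library was left out, -1.74 points at a minimum of 20 reads and -1.93 without chromosome 3, and the class means kept theirs, from 0.0645 to 0.192 points under 20%, -6.25 to -4.93 between 20 and 80% and -6.01 to -4.24 over 80% without 1 library. No CpG was called at 20 reads, by strand, at 10 points or without any 1 library, and no promoter was called under any alternative. Tile calls were the part that changed: the 3 lower calls became 0 after thinning, 0 with tiles of 500 bp, 0 with limma, 0 to 0 without any 1 library, and 8 with at least 5 CpGs per tile. The fit on all 12 libraries called 1594 lower and 72 higher tiles. With the prior set on features at 10 to 90%, chosen after seeing the data, 118 tiles and 341 CpGs were called lower and 8 tiles and 17 CpGs higher. Tiles at an unadjusted p under 0.05 and 10 points ranged from 4483 to 9519 lower and 298 to 765 higher without 1 library, and limma gave 235 higher. The cause of these changes was not tested. Of 350 values for named tiles and promoters, none reversed, 24 called values lost their call and 34 gained one. Features chosen for no overlap cannot reverse when 1 library is left out, and another test, block or prior leaves the difference unchanged. The lack of reversals there was thus fixed in advance. With the replicate number as a replicate block, 0 tiles were called and the mean difference of -1.92 points had an exact p of 0.25, the smallest that 3 pairs allow. Same-numbered libraries deviated with correlations of 0.0190, -0.00564 and 0.0161 over tiles above 20%, and libraries of unlike number with -0.0211 to 0.00431. Deviations shared by number were thus near 0 in methylation. These values cannot tell whether the numbers pair samples in another way, and the labels do not say so. The test has 4 residual degrees of freedom, and p-values of 3 against 3 libraries do not go below 0.1 in the permutation test.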

Other observations

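The X chromosome was left out of the tests and gave the same direction. Over 23552 X-linked CpGs with at least 10 reads in the 6 libraries, Nras G12D averaged 52.6, 52.4 and 52.4% and the libraries labelled leukemic 51.5, 48.8 and 49.2%, a difference of -2.65 points (two-sided exact permutation p = 0.1, the smallest possible). All 6 libraries listed 2 to 18 positions on the Y chromosome, while 3 of the other 6 listed 251 to 360.

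Single CpGs that were under 10% in 1 library and over 70% in the other 5 were counted as well. There were 3469 in the library labelled leukemic 3, 936 in leukemic 1, 113 in leukemic 2 and 175 in Nras G12D 3, and 0 in Nras G12D 1 and 2. They were spread over 19 chromosomes in each of the 4 libraries that had them, with at most 8.59% on one chromosome in leukemic 3 and 11.5% in leukemic 2. The reverse, over 70% in 1 library and under 10% in the other 5, was seen at 383 CpGs in leukemic 1, 190 in leukemic 3, 54 in Nras G12D 3 and 3 in leukemic 2.

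Coverage differed between the groups at few places. With at least 20 reads in each library of 1 group and no listing in the other, 344 CpGs were read in the leukemic labels and 401 in Nras G12D, of which 20 and 18 lay on chromosome 3.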
